A study of Arabidopsis thaliana with 6 samples.

Results

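The genes described here are the 29 that were clearly lower in rosettes of the Arabidopsis thaliana mutant sid2.2 than in the wild type Col-0. They were chosen by their array signals in both genotypes. A gene was taken when its array signal averaged above 100 over the 6 arrays and its lowest Col-0 signal was at least 1.3 times its highest sid2.2 signal. Only probe sets (the groups of array probes that measure a transcript) with 1 gene name entered, without controls and chloroplast-encoded genes, and TRZ1, a gene next to the mutated locus, was left out. Of 22810 probe sets on the array, 6978 could pass, and 29 did (0.416%). The same rule with the genotypes exchanged took 80 (1.15%). The rule used the difference between the genotypes, so the sizes below are a description and carry no test.

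The sid2.2 plants carry a mutation in ICS1, and the Col-0 plants are the wild type of the same study. Every plant of both genotypes was kept on low sulfate, 0.016 mM, until an age of 60 days, so no group with ample sulfate stands beside them. All grew under short days of 8 h light, at 160 umol per m2 per s, and 16 h dark. There were 3 consecutive cultures, months apart, and each gave 1 array per genotype from a pool of more than 6 whole rosettes. A replicate number gives the culture, so that replicate 3 of both genotypes comes from culture 3. One mutant allele was studied, and each array averages a pool.

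ICS1 encodes isochorismate synthase, the enzyme of the main route to salicylic acid, a hormone that drives defence against pathogens that feed on living tissue. Plants without a working ICS1 make little salicylic acid and respond weakly to such pathogens. Salicylic acid also takes part in the balance between growth and defence and in leaf ageing, so genes lower in the mutant can belong to many processes. No probe set in the annotation used was named ICS1, and the genotype labels were therefore not checked on the mutated gene.

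The arrays were alike in scale, with median signals between 131 and 162. RCA, the Rubisco activase of leaves, had signals from 11743 to 24339, and the root marker PYK10 had 32.0 to 232. Neither passed the test between the genotypes (limma adjusted p = 0.885 and 0.971). No other leaf or root marker on the lists had a tested probe set, and none of the flower or seed markers did. All 29 genes lay above the unspiked bacterial controls on every array (95th percentile between 27.9 and 39.9). On some controls the ratio of 3' over 5' signal did not overlap between the genotypes. The ratio of 3' over 5' signal of actin, a measure of RNA integrity, was 4.81 to 4.91 on the Col-0 arrays, whereas the mutant arrays had 5.34, 6.51 and 8.34 (two-sided exact permutation p = 0.1, the smallest that 3 arrays against 3 can give). Another pair of actin controls had overlapping ratios, 15.0 to 24.7 against 17.3 to 37.1 (exact permutation p = 0.5). The same ratio for GAPDH was 2.33 to 2.81 in Col-0 and 2.93 to 3.87 in sid2.2 (exact permutation p = 0.1), so it and the first actin pair did not overlap between the genotypes. Without sid2.2 replicate 3 the mean excess on the first actin pair was 1.07, against 1.87 with it. The part of RNA integrity in the differences below was not tested.

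Differences are given as the mean log2 signal in sid2.2 minus that in Col-0, where -1 stands for a signal lower by a factor of 2. Over the 29 genes they ran from -1.62 to -0.47, with a median of -0.85, beside -0.02 for the 6978 probe sets that could pass. As folds, Col-0 over sid2.2, this is 1.38 to 3.07 with a median of 1.80. Only 7 of the 29 were lower by a factor of 2 or more, beside 58 of the 6978 that could pass. The difference varied between cultures by a median range of 0.51, beside 0.95 for all that could pass. The median residual SD was 0.20 on the log2 scale, beside 0.32 for all that could pass, and a small spread is itself favoured by the rule. In the limma fit over all 13647 probe sets kept after the low-signal filter, 0 of the 29 had an adjusted p under 0.05, where 1 probe set in all was lower and past it (0.00733%). With culture as a block, 0 were. Of the 29, 28 had an unadjusted p under 0.05, beside 2.76% of all tested that were lower at that level. Nothing is read from these counts, since the rule used that contrast. In a mixed tissue such as a rosette, fewer cells of a type and less RNA per cell cannot be told apart.

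**Figure D1:**
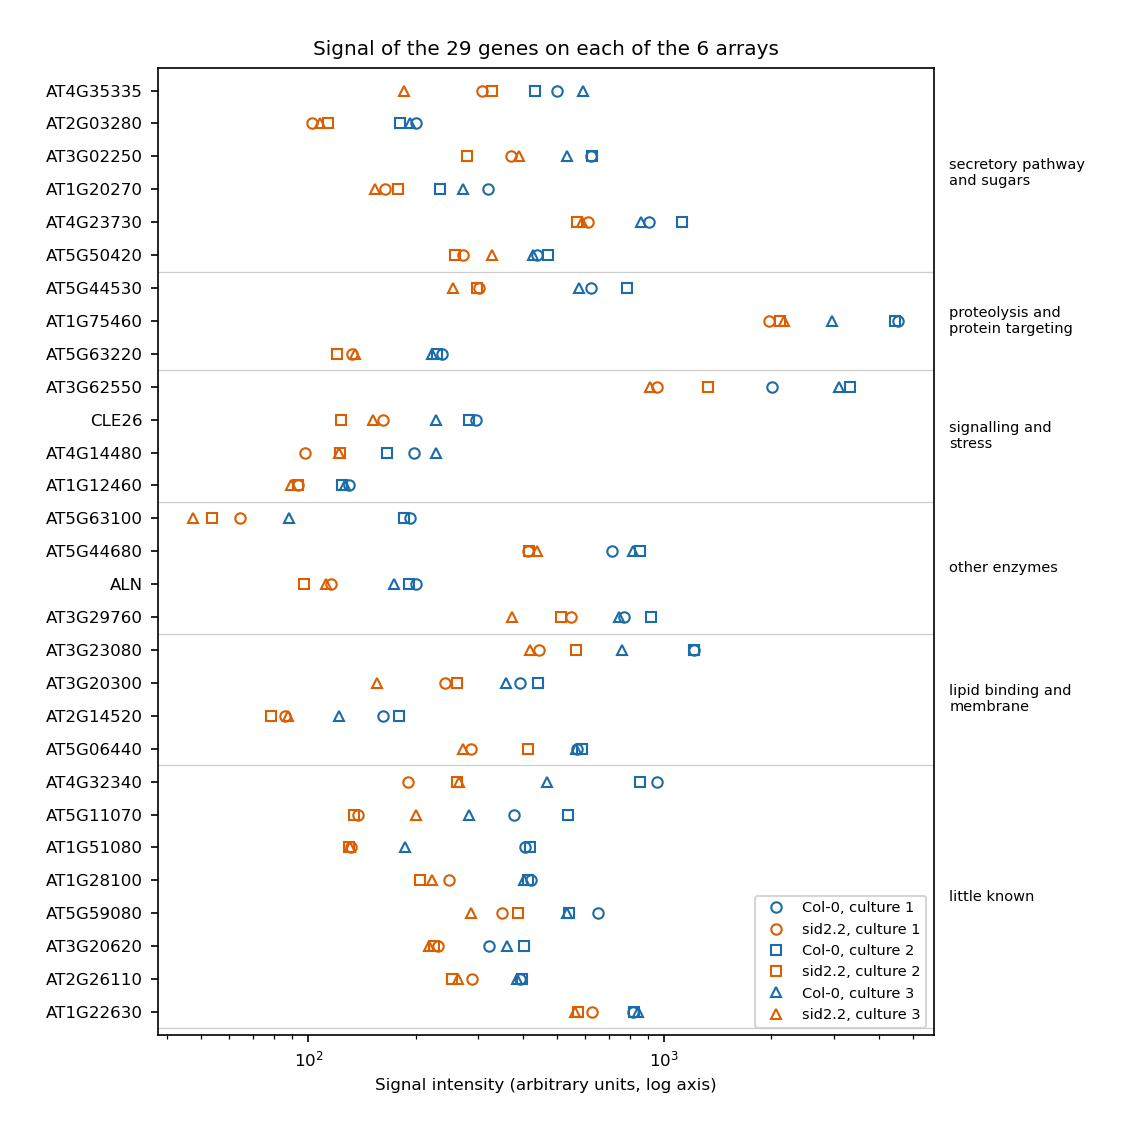
Signal intensity (log axis) of the 29 genes on each array, with Col-0 in blue and sid2.2 in orange and a symbol per culture. Each row has its 3 Col-0 points to the right of its 3 sid2.2 points, as the rule requires, and the distance ranges from AT1G12460 (1.38-fold) to AT4G32340 (3.07-fold).

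A group of 6 genes encodes proteins of the secretory pathway or of sugar chemistry, where plant cells build and decorate wall polymers and glycoproteins. The groups were made from general knowledge, with the values known. This group holds 3 members of the O-fucosyltransferase family, Golgi enzymes of a fold that transfers fucose or related sugars. AT2G03280, of this family, had 201, 181 and 193 in Col-0, against 102, 113 and 108 in the mutant. AT3G02250, of the same family, had 623, 626 and 532 against 369.9, 279.5 and 391. They were 1.77-fold and 1.73-fold lower. The arrays of each genotype lay close together for AT2G03280, while for AT3G02250 the mutant arrays spread, with differences within cultures from -1.16 to -0.45. AT5G50420, the third of the family, had 439, 471 and 428 against 271, 258 and 328, a 1.57-fold difference in which sid2.2 replicate 3 came nearest to Col-0.

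AT1G20270 belongs to the prolyl 4-hydroxylase family, whose enzymes hydroxylate proline in secreted proteins such as extensins so that sugars can be attached. Its signals were 319, 234 and 273 in Col-0, against 164, 179 and 154 in the mutant (1.65-fold lower). AT4G23730, a galactose mutarotase-like protein of the type that interconverts sugar anomers, had 907, 1124 and 860.2 against 609.7, 568.0 and 586 (1.63-fold lower). The sid2.2 arrays were tight for both genes, and the spread was mainly among the Col-0 arrays.

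AT4G35335 encodes a nucleotide-sugar transporter family protein, of the kind that carries activated sugars into the Golgi. Its signals were 499, 432 and 591 in Col-0, against 307, 327 and 186 in the mutant, where replicate 3 was low. It was the only 1 of the 29 genes with a second probe set of a single name, which measured it again on the same arrays. With a mean signal of 533, the second probe set was among those that could pass the rule, and it did not. That probe set had 603, 495 and 689 in Col-0, against 535, 511 and 364 in the mutant. Here the genotypes overlapped, the difference was -0.35 (SE 0.25), and it did not pass (limma adjusted p = 0.791). Both probe sets had their largest difference in culture 3, at -1.67 and -0.92, while in culture 2 they had -0.40 and 0.046. The gene carries the older locus names AT4G35330 and AT4G35340 as synonyms in RefSeq, and which transcript each probe set binds was not tested.

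Over the whole group of 6 the median difference was -0.76, and it was -0.73, -0.77 and -0.69 within cultures 1, 2 and 3. The group thus had nearly the same median in each culture, although its genes differed. In culture 3 AT4G35335 had its largest difference, -1.67, and AT3G02250 its smallest, -0.45. Most groups described below were less even over cultures 1, 2 and 3. Their medians were -1.04, -1.08 and -0.72 for proteolysis and targeting, and -0.94, -0.82 and -0.75 for signalling. For other enzymes they were -0.79, -1.01 and -0.90, and for genes of little known function -0.83, -0.93 and -0.65.

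A further 3 genes encode proteins that cut proteins or deliver them. AT5G44530 encodes a subtilase, a secreted serine protease of the subtilisin type, and had the widest gap of all 29, its lowest Col-0 signal being 1.91 times its highest sid2.2 signal. Its signals were 622, 786 and 576 in Col-0, against 302, 298 and 255 in the mutant, a 2.30-fold difference. AT1G75460 carries the substrate-binding domain of Lon-type ATP-dependent proteases, with 4550.3, 4453 and 2955 against 1963, 2111 and 2163 (1.88-fold lower). Its Col-0 replicate 3 lay well below the other Col-0 arrays but still above all 3 of sid2.2.

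AT5G63220 is the Arabidopsis counterpart of GET4, which in yeast and animals hands newly made tail-anchored membrane proteins to the targeting factor GET3. Its signals were 238, 230.4 and 222 in Col-0, against 133, 120.4 and 135 in the mutant. This 1.78-fold difference stood against an SD of 7.75 in Col-0, against 8.00 in the mutant (n = 3 each). The differences within the cultures, -0.84, -0.94 and -0.72, were correspondingly even.

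In signalling and stress, AT3G62550 had the third-largest fold of the 29. It encodes a universal stress protein-like adenine nucleotide-binding protein. Its signals were 2010.1, 3326 and 3101 in Col-0, against 955, 1329 and 912 in the mutant (2.62-fold lower). Culture 3 had its largest difference, -1.77, against -1.07 in culture 1.

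CLE26 encodes a secreted peptide of the CLAVATA3/ESR-related family, known from work on roots and vascular tissue. It had 295, 283 and 229 in Col-0 against 162, 124 and 152 in sid2.2 (1.85-fold lower). AT4G14480 is BLUS1, a protein kinase of guard cells that passes the blue light signal from phototropins towards the opening of stomata. Its signals were 198, 166 and 229 in Col-0, against 97.9, 122 and 122 in the mutant (1.73-fold lower). For BLUS1 culture 2 had the smallest difference, -0.44, and culture 1 the largest, -1.02.

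AT1G12460, a leucine-rich repeat receptor-like kinase, had the smallest fold of the 29 and the most even one. Its signals were 130.3, 124 and 127 in Col-0, against 93.2, 93.3 and 89.4 in the mutant. The differences within cultures, -0.48, -0.41 and -0.51, spanned 0.096. Such a small fold met the rule because neither genotype varied between pools.

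Other enzymes are encoded by 4 of the genes. ALN encodes allantoinase, which opens the ring of allantoin in the breakdown of purines and so helps to recover nitrogen. Its signals were 201, 192 and 173 in Col-0, against 116, 97.2 and 112 in the mutant, a 1.75-fold difference. AT5G44680, of the DNA glycosylase superfamily that removes damaged bases, had 712, 857 and 816 against 414, 417 and 439 (1.87-fold lower). Its sid2.2 arrays lay within an SD of 13.8 around 423.

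AT5G63100, an S-adenosylmethionine-dependent methyltransferase, had 193, 186 and 88.3 in Col-0, against 64.1, 53.5 and 47.3 in the mutant. Its 2.69-fold difference was the second-largest, but Col-0 replicate 3 lay nearer to the sid2.2 arrays than to the other Col-0 arrays. AT3G29760, of the haloacid dehalogenase-like hydrolases, had 768, 917 and 746 against 547, 513 and 374 (1.71-fold lower).

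A group of 4 binds lipids or sits in membranes. AT3G23080 and AT5G06440 belong to the polyketide cyclase and START-like superfamily, proteins with a pocket for lipids or other hydrophobic molecules. AT3G23080 had 1209.6, 1213 and 759.7 in Col-0, against 443, 564 and 418 in the mutant, a difference of -1.14. AT5G06440 had 569.7, 587 and 563 against 285, 415 and 272 (1.80-fold lower). In both, sid2.2 replicate 2 was the highest mutant array.

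AT2G14520, a membrane protein with CBS domains, had 162, 179 and 122 in Col-0, against 85.7, 78.3 and 87.5 in the mutant. AT3G20300, which carries a domain of unknown function, had 393, 443 and 359 against 242, 261 and 156. These are 1.82-fold and 1.85-fold differences. The group's medians within cultures 1, 2 and 3 were -0.96, -0.93 and -0.96.

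The remaining 8 genes have little known function. AT4G32340, a tetratricopeptide repeat-like protein, had the largest fold, 3.07, its signals being 954, 855 and 469 in Col-0 and, in the mutant, 191, 262 and 265. AT5G11070 had 378, 535 and 283 against 138, 134 and 201 (2.49-fold lower). AT1G51080 had 406, 419 and 187 against 132, 130.3 and 131 (2.42-fold lower). In all 3 the Col-0 arrays were far apart, with replicate 3 lowest, whereas the sid2.2 arrays of AT1G51080 lay within an SD of 0.96.

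AT1G28100 was even in both genotypes, with 423, 414 and 404 in Col-0, against 248, 205 and 222 in the mutant (1.84-fold lower). AT5G59080 had 650.4, 540.3 and 531 against 350.5, 389 and 287. AT3G20620 had 321, 403 and 361 against 231, 225 and 218. The last of these had its smallest difference, -0.47, in culture 1, and AT5G59080 had its own, -0.48, in culture 2.

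AT2G26110, which carries a domain of unknown function, had 392, 397 and 387 in Col-0, against 289, 253 and 263 in the mutant (1.46-fold lower). AT1G22630 had 815, 823 and 843 against 626, 573 and 563 (1.41-fold lower). Both are small differences between tight groups, with an SD of 5.23 and 14.5 in Col-0.

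Some genes lay close to the limits of the rule. The 3 nearest inside the ratio limit were AT1G22630 (1.301), AT1G20270 (1.306) and AT5G50420 (1.308), and the 3 nearest outside were AT1G76620 (1.293), AT3G11320 (1.292) and AT2G40980 (1.289). By mean signal, AT5G63100 (105), AT1G12460 (109.5) and AT2G14520 (119) were the 3 nearest inside. AT4G37240 (94.8), AT2G40530 (87.5) and AT3G46370 (86.6) met the ratio but not the signal limit. The signal limit left out AT4G37240 although its ratio, 1.56, was above that of most of the 29.

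**Figure D2:**
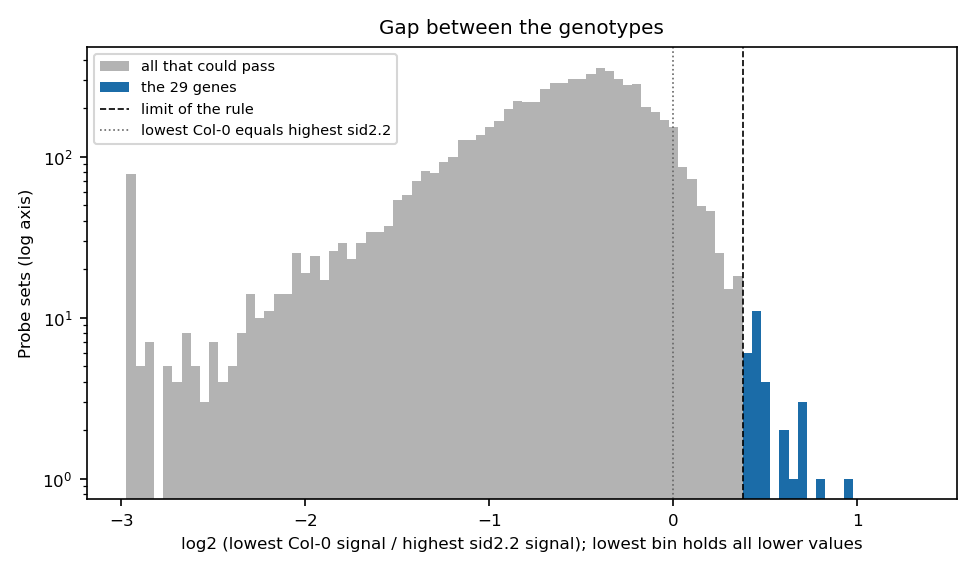
Number of probe sets (log axis) by the log2 of the lowest Col-0 signal over the highest sid2.2 signal, for the 6978 that could pass (grey) and the 29 taken (blue). The 29 form the end of a continuous slope, with no break at the limit (1.3, dashed).

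Each of the 29 genes was lower in sid2.2 by at least 1.3-fold within each culture, which the rule fixes. Only the size beyond that limit was free to vary, so the medians of the 29 are a description. The median within cultures 1, 2 and 3 was -0.87, -0.98 and -0.83, beside 0.070, 0.016 and -0.088 for all that could pass. Culture 2 held the largest difference for 15 genes, and cultures 1 and 3 for 7 each. The smallest difference fell in culture 3 for 13 genes, in culture 1 for 9 and in culture 2 for 7. Every culture was lower by a factor of 2 or more for 2 genes only, AT5G44530 and AT3G62550, among 4 such probe sets of all that could pass.

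Cultures were most even for AT1G12460, followed by AT1G22630 (-0.38, -0.52 and -0.58) and AT2G26110 (-0.44, -0.65 and -0.55). They were most uneven for AT5G11070 (-1.46, -1.99 and -0.50), AT4G32340 (-2.32, -1.71 and -0.83) and AT4G35335 (-0.70, -0.40 and -1.67). In the first 2 of these uneven genes culture 3 had the smallest difference, and in AT4G35335 it had the largest. For 14 of the 29 at least 1 culture had a difference between 0 and -0.5.

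**Figure D3:**
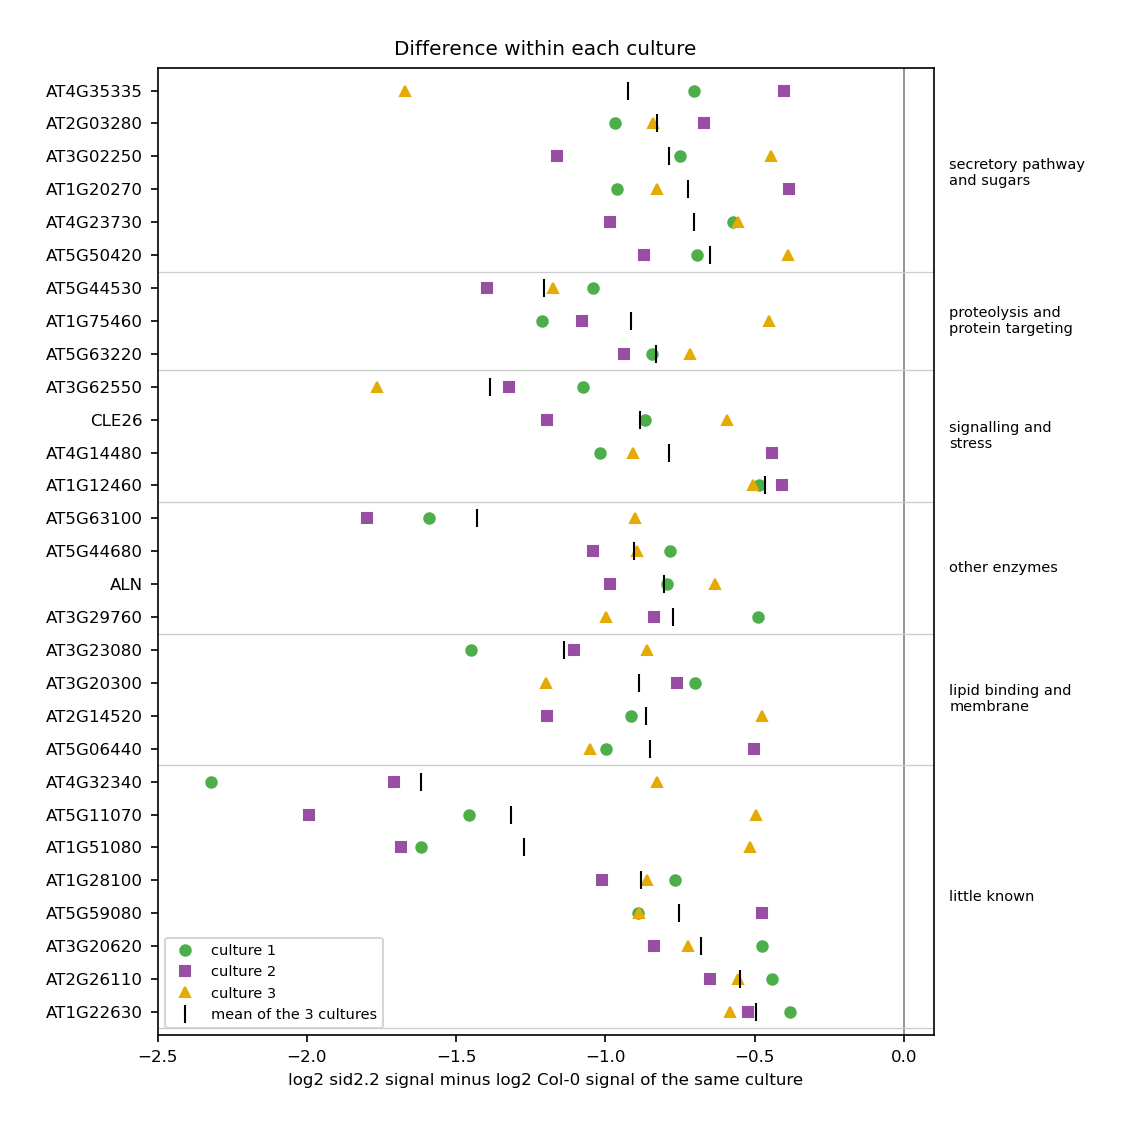
Difference between sid2.2 and Col-0 (log2) within cultures 1, 2 and 3, with the mean as a bar, for each of the 29 genes. All 87 points lie below 0, as the rule requires, and AT5G11070 and AT4G32340 span the widest ranges.

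One Col-0 array set the limit for most of the genes. Col-0 replicate 3 had the lowest wild-type signal for 20 of the 29 (69.0%), whereas over all 6978 probe sets that could pass it was the lowest for 33.7%. It lay below the mean of the other 2 Col-0 arrays by over 0.5 on the log2 scale for 6 genes. These were AT1G51080 (-1.14), AT5G63100 (-1.10), AT4G32340 (-0.94), AT3G23080 (-0.67), AT5G11070 (-0.67) and AT1G75460 (-0.61). Over all that could pass, 16.7% lay that far below, against 20.7% of the 29. The highest sid2.2 signal was spread over the mutant arrays, with 11, 10 and 8 genes on replicates 1, 2 and 3.

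When Col-0 replicate 3 was left out, limma called 64 probe sets lower (0.469% of those tested), and 7 of the 29 were among them. With any other single array left out, 0 of the 29 were called lower. Nothing is read from these calls either, since the rule used the same contrast on the same arrays. The rule applied without that array took 360 genes, all 29 included. The members' median difference was -0.86 without it.

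**Figure D4:**
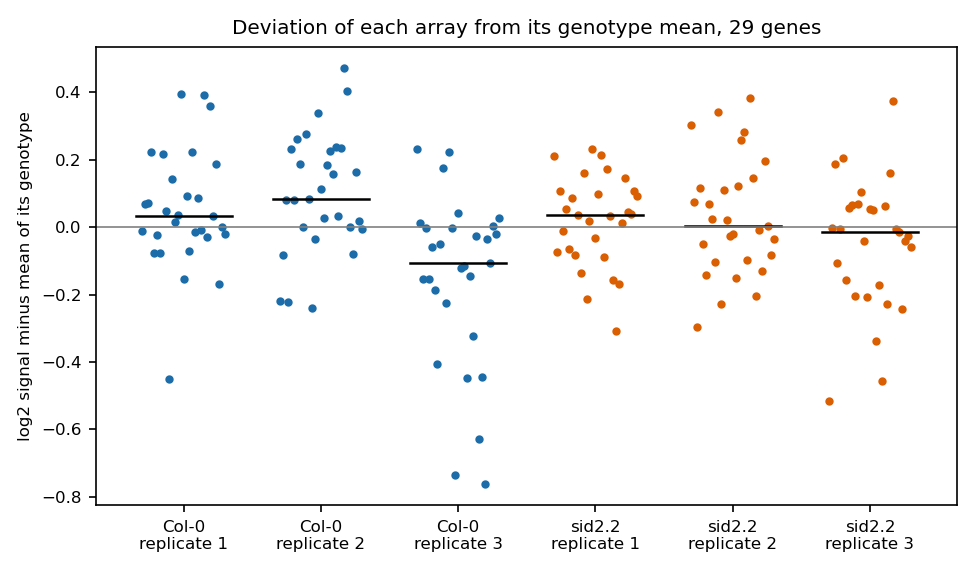
Log2 signal minus the mean of its genotype for the 29 genes (points) on each array, with the median as a bar. The median is -0.11 on Col-0 replicate 3 and between -0.015 and 0.083 on the other 5 arrays, and the lowest points lie on Col-0 replicate 3.

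The relatives and pathway partners of these genes were read from lists drawn up by general knowledge once the members were known. In the same limma fit, which calls 0.0147% of all probe sets higher and 0.00733% lower, no partner on any of these lists was called in either direction. Of the O-fucosyltransferase family, 22 genes were tested, and the 19 outside the 29 had a median of -0.11, with 13 below 0. Over all tested probe sets 50.6% lay below 0 and the median was -0.0051. The smallest p among the 19 was that of AT1G52630 at -0.57 (limma adjusted p = 0.673), followed by AT3G30300 at -0.51 (0.692). Of these 19, 1 had an unadjusted p under 0.05.

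In purine breakdown, AAH, which acts on allantoate just after ALN, differed by 0.17, UGLYAH by 0.19 and FAC1, an AMP deaminase, by 0.050 (smallest limma adjusted p = 0.908). In the GET pathway the 2 tested GET3 genes AT1G01910 and AT3G10350 differed by -0.10 and -0.0059, and the GET1 counterpart AT4G16444 by 0.11 (smallest limma adjusted p = 0.919). AT5G63220 and ALN were thus the only measured genes of those lists that met the rule.

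For blue light signalling in guard cells, CBC2 (AT5G50000) differed by -0.38 and BHP (AT4G18950), a kinase that binds BLUS1, by -0.13. CBC1 (AT3G01490) differed by -0.031 and PATROL1 (AT5G06970) by 0.064, with a smallest limma adjusted p of 0.759. The 5 other tested prolyl 4-hydroxylase family genes had a median of 0.036, with 2 below 0. The 5 other tested START-like genes had a median of 0.11, with 1 below 0, AT4G14500 at -0.097. The 4 other tested CLE peptide genes ran from -0.66 for CLE27 to 0.74 for CLE44 (limma adjusted p = 0.647), with 1 at an unadjusted p under 0.05. Across these 4 lists, partners thus lay on both sides of 0.

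**Figure D5:**
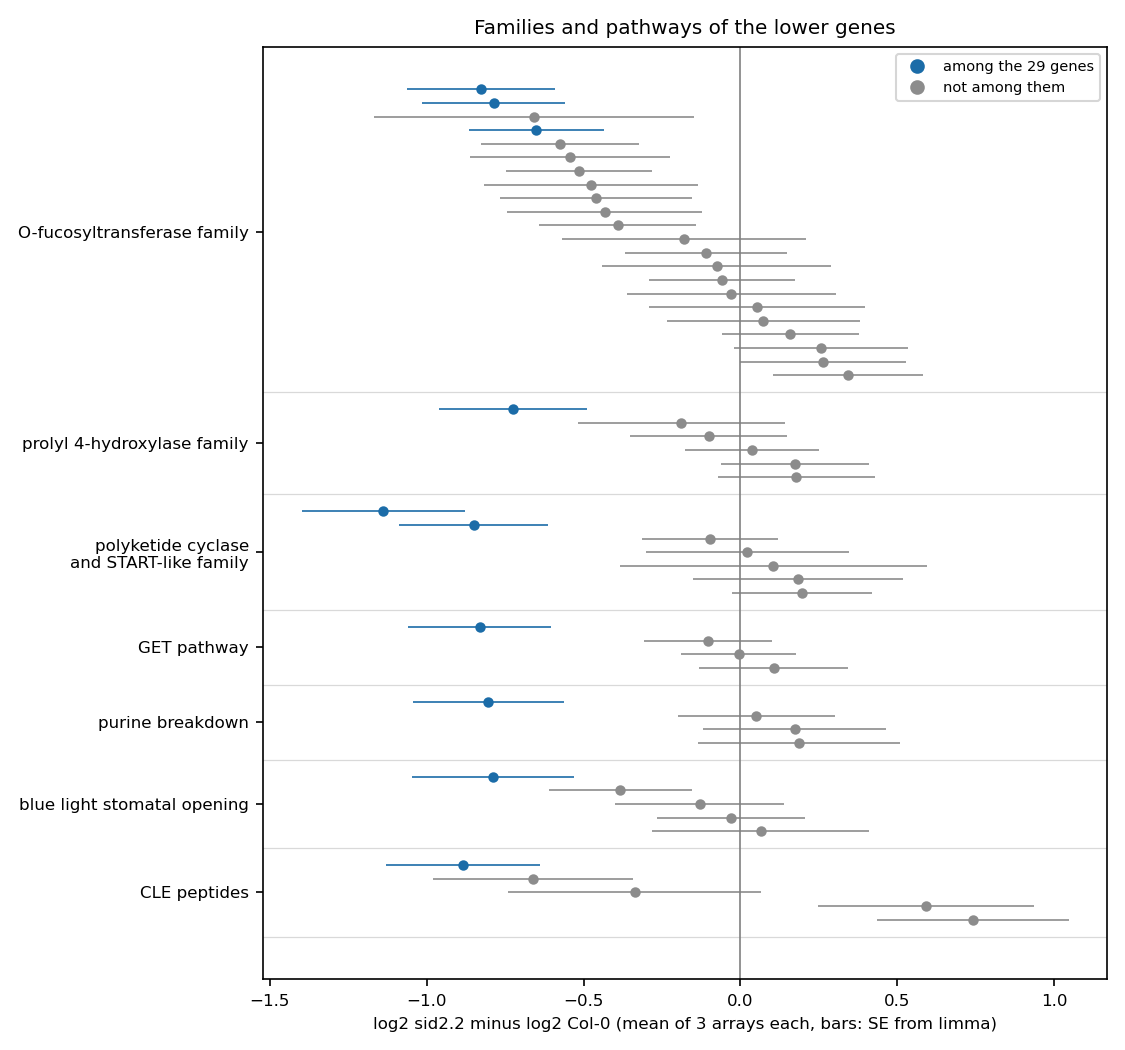
Difference between sid2.2 and Col-0 (log2, bars: limma SE) for every tested gene of 7 families or pathways, with the genes that met the rule in blue. Blue points lie between -1.14 and -0.65, and the grey partners lie on both sides of 0 in every family except purine breakdown, where all 3 are above it.

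Lists of wider leaf processes had 0 calls in both directions. All 6 tested genes of chlorophyll synthesis but 1 lay below 0, with a median of -0.25, and the smallest p for CHLM at -0.38 and PORB at -0.35 (limma adjusted p = 0.757 and 0.814). Within culture 2 all 6 were below 0 (median -0.94), within culture 1 4 were (-0.13), and within culture 3 all 6 were above 0 (0.36). Of 23 expansin and xyloglucan transglucosylase genes with a probe set, 7 were tested. The means of all 7 lay below 0, with a median of -0.53. The smallest p were those of EXPB1 at -1.67 and EXPA8 at -0.67 (limma adjusted p = 0.745 and 0.757). Here too the cultures had opposite signs, with all 7 below 0 in culture 2 (median -1.86), 5 in culture 1 (-0.23), and all 7 above 0 in culture 3 (0.84). In all 7, and in all 6 genes of chlorophyll synthesis, Col-0 replicate 3 was the lowest wild-type array. In the same genes sid2.2 replicate 2 was the lowest mutant array, so the signs follow 1 low array of each genotype, from different cultures. EXPB1 shows how such genes failed the rule, with 651, 860.5 and 78.6 in Col-0 against 104, 50.5 and 261, where Col-0 replicate 3 lay inside the mutant range. Of 13 nuclear photosynthesis genes 9 lay below 0, with a median of -0.045, and the smallest p for SBPASE at -0.37 (0.826) and ATPC2 at -0.22 (0.878), while within culture 3 12 of the 13 were above 0.

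The other lists had few tested genes. Of 8 subtilases with a probe set, relatives of AT5G44530, 3 were tested. SBT3.5 differed by 1.99 (limma adjusted p = 0.348) and SBT1.3 by -0.27 (0.904). The low-signal filter left out SBT3.3, with 1.78, 3.06 and 59.3 in Col-0 against 142, 241 and 124 in sid2.2. It also left out SBT4.13, which differed by -0.58. Of 11 auxin response genes with a probe set, 2 were tested. GH3.17 differed by 0.91 (0.617) and IAA18 by -0.067 (0.963). Among those left out, at low signal, GH3.3 differed by 3.68 and GH3.1 by -1.93. GI, of the circadian clock, differed by 1.07 (0.788), GRX480 and SAG101, of salicylic acid signalling, by 0.61 (0.801) and 0.042 (0.985), PYK10 by 0.14 (0.971) and RCA by 0.20 (0.885). None of the tested genes passed.

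The 29 genes were spread over the 5 chromosomes, with 7, 3, 6, 5 and 8 on chromosomes 1 to 5, or 0.381%, 0.298%, 0.420%, 0.499% and 0.477% of those that could pass there. No 2 of them were direct neighbours in the RefSeq gene order, and the closest pair, AT5G63100 and AT5G63220, had 11 protein-coding genes between them. AT5G44530 and AT5G44680 had 26 between them. AT1G75460 was the nearest to ICS1, with 74 protein-coding genes between.

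Direct neighbours with a usable signal numbered 18, beside 14 of the 29 genes, and 0 of them met the rule. Of these neighbours 12 lay below 0 (66.7%, against 52.4% of all that could pass), with a median of -0.16. AT5G44520, next to AT5G44530, differed by -0.90, and its lowest Col-0 signal was 1.04 times its highest sid2.2 signal. Among all that could pass, 5.96% had no overlap with sid2.2 lower. bHLH115, next to AT1G51080, also had no overlap, with a difference of -0.21. AT3G23090, next to AT3G23080, differed by -0.78 with overlapping genotypes.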

How the data were processed

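The 6 arrays measured labelled RNA from 200 ng of total RNA per pool. The deposited values are linear signal intensity per probe set, which the authors computed by MAS5, per the submitters' processing notes (version not given in the sources used here). Scaling gave each array a mean near 500.05 without its highest and lowest 2%, so a change in total signal would not show. For arrays no counting depth exists, and 3 arrays per genotype limit the precision.

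Probe sets were named by the platform annotation: 13513 had 1 gene name, 503 several and 8794 none. Of the first, 13436 matched RefSeq (TAIR10.1) by gene identifier.

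Intensities were log2 transformed. After 64 controls and the lowest 40% by mean log2 signal were dropped, 13647 probe sets were fitted with limma 3.58.1 in R 4.3.3 (eBayes with trend, two-sided, Benjamini-Hochberg, threshold 0.05). The script was checked on simulated arrays with known changes, where it recovered 25.6% of 2-fold and 91.8% of 4-fold changes. The simulated noise was normal and independent between probe sets, with limma's own variances and no outlying array, so these rates need not hold for the real arrays. The fit can thus miss differences of the sizes described above, and a gene that did not pass is not shown to be unchanged. Other values used Python 3.11.15 and pandas 2.3.3.

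The labels give each array a culture number, and these numbers pair the arrays of the genotypes. The main fit held no term for culture, which was a block in another setting only. Deviations from the genotype mean correlated at -0.035, -0.53 and -0.55 in cultures 1, 2 and 3. p-values measure the spread between pools.

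Members and lists were chosen with earlier results of these data known. All 29 members are named, with those nearest the limits, the direct neighbours that stood out, and the 2 list genes of smallest p. EXPB1 signals and the neighbours were chosen after values were seen.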

Additional observations from a re-analysis of the deposited data

How the results depend on the processing

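The number of genes taken moved with the limits and the arrays. A ratio limit of 1.2 or 1.5 took 67 or 7 genes, and 45 in the other direction at 1.5, where a signal limit of 200 took 48. Leaving out 1 array or culture gave 45 to 632 genes lower and 107 to 689 higher, since fewer arrays make the rule easier to meet. It gave 439 and 427 when 2 arrays picked after seeing the data, Col-0 replicate 3 and replicate 2 of the mutant, were both dropped. Quantile normalization took 40 genes, 26 of them shared with the 29, and median centring took 29, of which 24 were shared. The median difference of the 29 was -0.76 with 16 added to the signal, and -0.89 to -0.81 without any array or culture. Over 14 settings, 8 of 406 single-gene differences moved by more than the spread between replicates and 0 changed sign, which the rule itself nearly fixes. Of the 14, culture as a block could not move a difference, since each culture gave 1 array per genotype.

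limma called 1 probe set lower and 2 higher. With culture as a replicate block it called 0 lower and 0 higher (136 and 414 at an unadjusted p under 0.05), and 0 and 0 without the filter (562 and 993). With 20% left out it called 2 lower, with quantile normalization 0 higher (609) and with 16 added 4 higher. Without single arrays or cultures the calls ran from 0 to 269 lower and 0 to 459 higher, and without the 2 arrays above they were 56 and 179. The cause was not tested. The sid2.2 excess in the actin ratio was 1.87, with 1.04 to 2.60 without single arrays or cultures (1.07 without sid2.2 replicate 3 and 1.04 without culture 3), and 6.12 on the other actin controls.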
